A study of Mus musculus with 2 samples.

Results

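Retinoic acid, made from vitamin A, is the signal that moves spermatogonia into differentiation and germ cells into meiosis, and 9 genes for its synthesis, breakdown, binding and reception were examined in a pair of mouse cell lines. The 9 genes were chosen by name, *Rdh10*, *Aldh1a1*, *Aldh1a2*, *Aldh1a3*, *Cyp26b1*, *Crabp1*, *Crabp2*, *Rara* and *Rarb*, out of 55450 genes in the annotation, and 6 of them were among the 14450 genes with a tag of their own in at least 1 library. GC-1spg is a line of type B spermatogonia of a mouse aged 10 days, transformed with the plasmid pSV3-neo and placed by its label between that stage and the primary spermatocyte. The GC-2spd (ts) line is one of spermatocytes of a mouse aged 6 weeks, transformed with the SV40 large T antigen and labelled as premeiotic, arrested and no longer able to differentiate. Both were grown in DMEM with fetal bovine serum and sodium bicarbonate, and the labels name no retinoid or other agent added. Each group was a single transformed line and a single library, so that a difference between the libraries had no replicate check and cannot be told apart from a difference between cultures.

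Retinol is oxidized to retinal, for which RDH10 is a main enzyme, and retinal is oxidized to retinoic acid by the ALDH1A enzymes. CYP26 enzymes break retinoic acid down, and CYP26B1 keeps it away from the germ cells of the fetal testis. In the cytoplasm retinoic acid is carried by CRABP1 and CRABP2, and in the nucleus it binds the receptors RARA, RARB and RARG, which act on DNA as pairs with the RXR receptors.

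Expression was measured by digital gene expression (DGE) tag profiling, which counts short tags from the 3′ side of polyadenylated transcripts. A tag is CATG, the site that *Nla*III cuts, and the 17 bases after it. Only the 3′ fragment of each cut cDNA is kept, and the tag is taken at its cut end. A tag count is therefore not meant to grow with transcript length, and levels were compared between genes as TPM, the tags scaled to 1000000 clean tags. The libraries held 5072149 tags (GC-1spg) and 4726808 tags (GC-2spd (ts)), so that 1 copy was worth 0.197 TPM and 0.212 TPM. Tags seen once had been removed, and a gene with no listed tag may therefore still have had single copies of its tags.

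The tags that carried most of the copies of each listed gene are shown 5′ to 3′ on the strand of the gene, with the cut site in capitals and the gene-specific bases in lower case. They are shown because each level below rests on them.
*Rdh10*, distal 3′ UTR tag: CATGtgttggagtctaatctg
*Rdh10*, proximal 3′ UTR tag: CATGccgactctttttttttt
*Aldh1a1*, 3′ UTR tag: CATGcctgcttgtcaaatgaa
*Cyp26b1*, 3′ UTR tag: CATGcattttgtgaaatactc
*Crabp1*, 3′ UTR tag: CATGattgtaccagtcattaa
*Crabp2*, coding tag: CATGatgatgaggaagatcgc
*Rara*, 3′ UTR tag of the longer transcripts: CATGgggcccttcaacacaca
*Rara*, 3′ UTR tag of the shorter transcripts: CATGaggacctgggcctgagc
*Rara*, start codon tag: CATGgccagcaatagcagttc

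All 15 distinct sense tags of the 6 listed genes matched the reference without a mismatch. Of these, 8 lay in a 3′ UTR and held 86.9% of the 244 copies in GC-1spg against 87.9% of the 174 copies in GC-2spd (ts). The plot of copies by tag gives all of them.

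**Figure D1:**
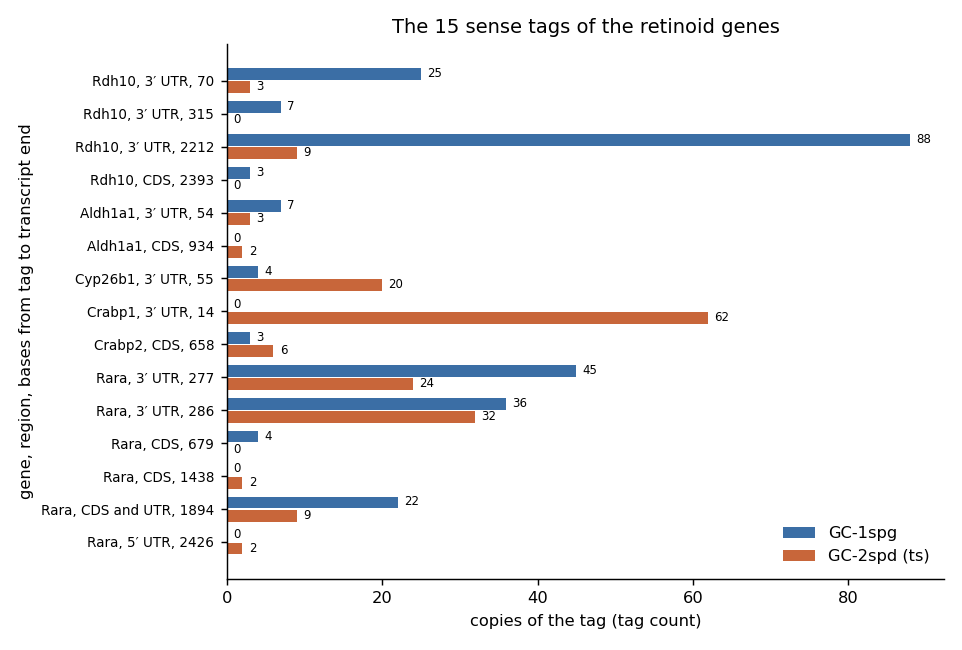
Copies of each of the 15 sense tags (x axis, tag count) in the single GC-1spg and GC-2spd (ts) libraries; each row is a tag, named by gene, annotated region and bases from the tag to the transcript end. *Rdh10* is carried by a tag with 88 copies in GC-1spg against 9 in GC-2spd (ts), and *Crabp1* by a tag with 62 copies in GC-2spd (ts) and no listed copy in GC-1spg.

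Set against GC-1spg, the GC-2spd (ts) library had less *Rdh10*, the enzyme that oxidizes retinol, and more *Crabp1*, a binding protein of retinoic acid, while *Aldh1a1*, *Cyp26b1*, *Crabp2* and *Rara* did not pass the test and *Aldh1a2*, *Aldh1a3* and *Rarb* had no tag of their own. A gene was called where the Audic-Claverie test, two-sided, gave a false discovery rate (FDR, Benjamini-Hochberg over 14450 genes) no greater than 0.001 and the log2 ratio was 1 or more in either direction. Of all genes tested, 19.5% were called, 11.7% as higher and 7.84% as lower in GC-2spd (ts), beside 1 of the 6 listed retinoid genes in each direction. The test compares these 2 libraries and not the cell lines, its intervals cover counting error only, and in RNA of whole cultures fewer cells of a type and less RNA per cell cannot be told apart.

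**Figure D2:**
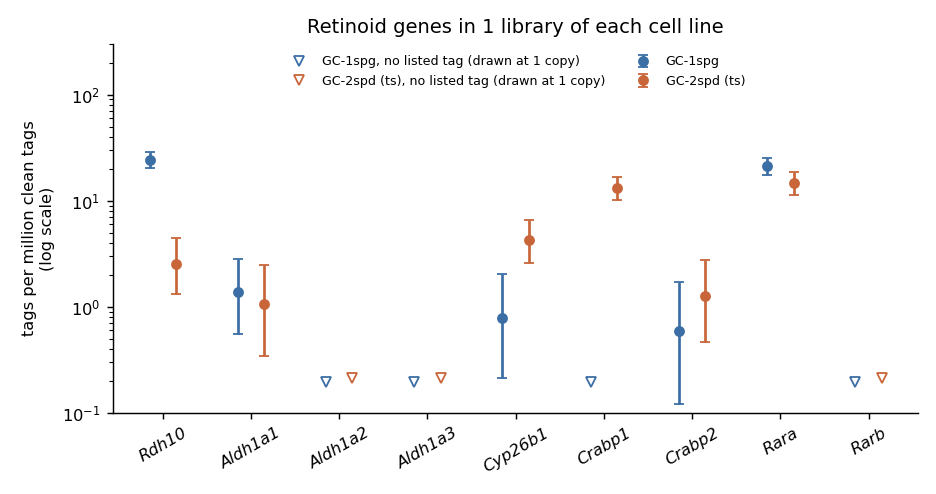
TPM, tags scaled to 1000000 clean tags (y axis, log scale) of the 9 genes in 1 library of each line; points are levels, bars are exact Poisson 95% intervals for counting error, and open triangles mark genes with no listed tag, drawn at the value of 1 copy. The bars of *Rdh10* do not overlap between the libraries, and *Crabp1* has a level of 13.1 TPM in GC-2spd (ts) only.

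Among the enzymes of synthesis, *Rdh10* (ENSMUSG00000025921.7, GRCm38 chr1:16105774-16133734, plus strand) had 123 tags in GC-1spg, or 24.3 TPM (95% interval 20.2 to 28.9), and 12 tags in GC-2spd (ts), or 2.54 TPM (1.31 to 4.43). It was 9.55-fold lower in GC-2spd (ts) (95% interval 5.28 to 19.0), a log2 ratio of -3.26 (-4.25 to -2.40), with an FDR of 8.11e-22 in the Audic-Claverie test. It stood at place 4304 of the 13066 genes listed in GC-1spg and at place 9477 of the 12757 genes listed in GC-2spd (ts). With an assumed biological coefficient of variation of 0.4, which stands in for the unmeasured spread between cultures, edgeR's exact test gave an FDR of 0.0238 and *Rdh10* was no longer called.

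The proximal *Rdh10* tag shown above, at chr1:16131502-16131522 in the 3′ UTR of exon 6, had 88 copies in GC-1spg against 9 in GC-2spd (ts). The distal one, at chr1:16133644-16133664 and the last CATG site before the annotated end, had 25 and 3 copies. A further 3′ UTR tag had 7 and 0 copies, and a coding tag 3 and 0 copies. Every *Rdh10* tag therefore had more copies in GC-1spg, and the proximal tag made up 71.5% of the copies in GC-1spg (Clopper-Pearson 95% interval 62.7 to 79.3) and 75.0% in GC-2spd (ts) (42.8 to 94.5), intervals that overlap. That tag lies 2212 bases before the end of the coding transcript and is the last site of a shorter noncoding transcript of the gene.

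*Aldh1a1* (ENSMUSG00000053279.8, chr19:20492715-20643465, plus strand), a retinal dehydrogenase, had 7 tags in GC-1spg (1.38 TPM, 0.555 to 2.84) and 5 in GC-2spd (ts) (1.06 TPM, 0.343 to 2.47). Its log2 ratio of -0.38 had an interval from -2.38 to 1.49 and an FDR of 0.748 in the Audic-Claverie test, so that no difference was detectable at this depth. The 3′ UTR tag at chr19:20643391-20643411 had 7 and 3 copies, and a coding tag had 0 and 2 copies.

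*Aldh1a2* (ENSMUSG00000013584.5, chr9:71215789-71296243, plus strand), the dehydrogenase that makes most retinoic acid in the embryo, had no listed tag in either library, although all 7 of its reference tags belong to it alone. *Aldh1a3* (ENSMUSG00000015134.15, chr7:66390890-66427517, minus strand) also had none among the 18 of its 19 reference tags that are its own. The remaining tag, the last of a short transcript at chr7:66408602-66408622, is shared with 364 other genes, and its 45906 copies in GC-1spg beside 29920 in GC-2spd (ts) cannot be assigned to *Aldh1a3*. Summed over the synthesis genes, 130 tags in GC-1spg stood against 17 in GC-2spd (ts), with *Rdh10* holding nearly all of them in the first.

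*Cyp26b1* (ENSMUSG00000063415.12, chr6:84571414-84593908, minus strand), the breakdown enzyme, had 4 tags in GC-1spg (0.789 TPM, 0.215 to 2.02) and 20 in GC-2spd (ts) (4.23 TPM, 2.58 to 6.53). All copies came from the 3′ UTR tag shown above, at chr6:84571469-84571489 and 55 bases from the transcript end. That tag lies in 1 of the 5 annotated transcripts, which is not the longest, and on the longest transcript alone *Cyp26b1* had 0 tags in both libraries. The intervals of the levels did not overlap, and the log2 ratio was 2.42 (0.85 to 4.43). The FDR in the Audic-Claverie test was 0.00242, above the threshold of 0.001, and *Cyp26b1* was not called.

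*Crabp1* (ENSMUSG00000032291.8, chr9:54764748-54773110, plus strand), which binds retinoic acid in the cytoplasm, had no listed tag in GC-1spg against 62 tags in GC-2spd (ts), or 13.1 TPM (10.1 to 16.8). All 62 copies were of the tag at chr9:54773076-54773096 in the 3′ UTR of exon 4, the last CATG site of the transcript and 14 bases from its end. Set against the one-sided 95% Poisson limit for 1 unlisted copy in GC-1spg, 0.935 TPM, the level of *Crabp1* in GC-2spd (ts) was at least 14.0-fold higher, with an FDR of 5.39e-19 in the Audic-Claverie test. It went from no listed copy to place 6427 of the 12757 genes listed in GC-2spd (ts).

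*Crabp2* (ENSMUSG00000004885.5, chr3:87948666-87953376, plus strand), which hands retinoic acid to the receptors, had 3 tags in GC-1spg (0.591 TPM, 0.122 to 1.73) and 6 in GC-2spd (ts) (1.27 TPM, 0.466 to 2.76). The log2 ratio of 1.10 (-1.13 to 3.73) had an FDR of 0.553 in the Audic-Claverie test. The gene has a single CATG site in the annotated transcripts, at chr3:87952122-87952142 in coding exon 2 and 658 bases from the transcript end, so its level rests on that site alone. In GC-2spd (ts) the level of *Crabp1* was above that of *Crabp2* without overlap of their intervals.

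*Rara* (ENSMUSG00000037992.16, chr11:98927818-98974942, plus strand), a nuclear receptor of retinoic acid, had 107 tags in GC-1spg (21.1 TPM, 17.3 to 25.5) and 69 in GC-2spd (ts) (14.6 TPM, 11.4 to 18.5). The log2 ratio was -0.53 (-0.99 to -0.08), or 1.45-fold lower (1.06 to 1.99), with an FDR of 0.0361 in the Audic-Claverie test, and *Rara* was not called. The upper bound of the fold was below the 2-fold that a call needs.

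The 3′ UTR tag of the shorter *Rara* transcripts, at chr11:98973865-98973885, had 45 copies in GC-1spg against 24 in GC-2spd (ts). It is the last CATG site of 2 transcripts but lies in 5, so its copies cannot be assigned to the shorter transcripts alone. The tag of the longer transcripts, at chr11:98974636-98974656, had 36 and 32 copies. The tag at chr11:98973865-98973885 held 55.6% of the copies of both tags in GC-1spg (44.1 to 66.6) and 42.9% in GC-2spd (ts) (29.7 to 56.8). The intervals overlap, and these are shares of tags and not of transcript forms. The tag over the start codon, at chr11:98950617-98950637, had 22 and 9 copies, and the other 3 tags of the gene had at most 4 copies in a library.

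*Rarb* (ENSMUSG00000017491.9, chr14:16430839-16819156, minus strand), a receptor whose gene is itself induced by retinoic acid, had no tag of its own in either library among 26 such reference tags. The last tag of its longest transcript, at chr14:16430859-16430879, was listed with 0 and 2 copies but also matches the antisense strand of *Top2b*, and was not counted. With that tag counted *Rarb* would have had 2 copies in GC-2spd (ts).

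The order of the levels was not the same in the libraries. In GC-1spg *Rdh10* and *Rara* stood at the top with overlapping intervals, and *Aldh1a1*, *Cyp26b1* and *Crabp2* followed at 0.591 to 1.38 TPM, each overlapping its neighbour. In GC-2spd (ts) *Rara* and *Crabp1* stood at the top with overlapping intervals, and *Cyp26b1*, *Rdh10*, *Crabp2* and *Aldh1a1* followed at 1.06 to 4.23 TPM, each again overlapping its neighbour.

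As a share of all copies of the 6 listed genes, *Rdh10* made up 50.4% (44.0 to 56.8) in GC-1spg and 6.90% (3.61 to 11.7) in the GC-2spd (ts) library, and the intervals did not overlap. The share of *Rara* was 43.9% (37.5 to 50.3) and 39.7% (32.3 to 47.3), with overlapping intervals. In GC-2spd (ts) *Crabp1* took 35.6% (28.5 to 43.2) and *Cyp26b1* 11.5% (7.16 to 17.2), the latter beside 1.64% (0.448 to 4.14) in GC-1spg. These shares depend on each other, and the summed level of the 9 genes was 48.1 TPM in GC-1spg against 36.8 TPM in GC-2spd (ts).

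**Figure D3:**
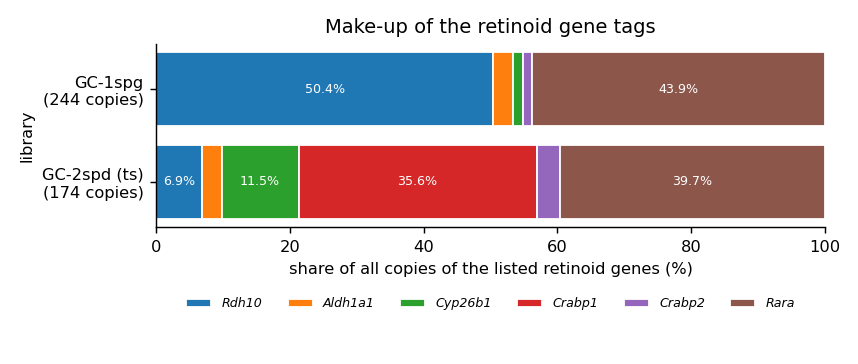
Share of all copies of the listed retinoid genes (x axis, %) held by each gene in 1 library of GC-1spg (244 copies) and 1 library of GC-2spd (ts) (174 copies). *Rdh10* and *Rara* make up most of the GC-1spg bar, and *Rara* and *Crabp1* most of the GC-2spd (ts) bar.

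The labels call both lines male germ cells. Of 22 germ cell markers, 2 had a listed tag, *Spo11* with 2 and 0 tags and *Tdrd1* with 0 and 4, and defining genes such as *Ddx4*, *Dazl*, *Sycp1* and *Dmc1* had none. The germ cell list summed to 0.394 TPM in GC-1spg beside 0.846 TPM in GC-2spd (ts), against 3423 and 2877 TPM for 10 of 12 fibroblast markers. Sertoli cell markers (10 of 14 listed) summed to 323 and 228 TPM, Leydig cell markers (4 of 10) to 5.91 and 69.4 TPM, and peritubular myoid markers (8 of 8) to 16.8 and 212 TPM. The Leydig sum rested mainly on *Nr5a1* (0 and 188 tags), also a gene of the Sertoli list, and *Thbs2* (26 and 135). *Star* had 2 and 5 tags, *Cyp11a1* 2 and 0, and *Cyp17a1* had none. The myoid sum rested mainly on *Acta2* (50 and 555 tags) and *Myl9* (17 and 419), while *Des* had 11 and 4. In each list these 2 genes were called higher and 0 lower. The Leydig and myoid sums thus differed between the libraries through few genes. Their part in the rise of *Crabp1* and the fall of *Rdh10* was not tested.

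The rest of the retinoid pathway was described by 76 further genes, of which 49 had a listed tag. In GC-2spd (ts) 3 of the 49 were called higher (6.12%) and 11 lower (22.4%), beside 11.7% and 7.84% of all genes. The median log2 ratio of the 49, with 0.5 tags added to both counts, was -0.03, beside 0.13 over all genes and 0.32 over the 6 listed retinoid genes. With an assumed biological coefficient of variation of 0.4, 0 of the 49 were called higher and 5 lower.

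**Figure D4:**
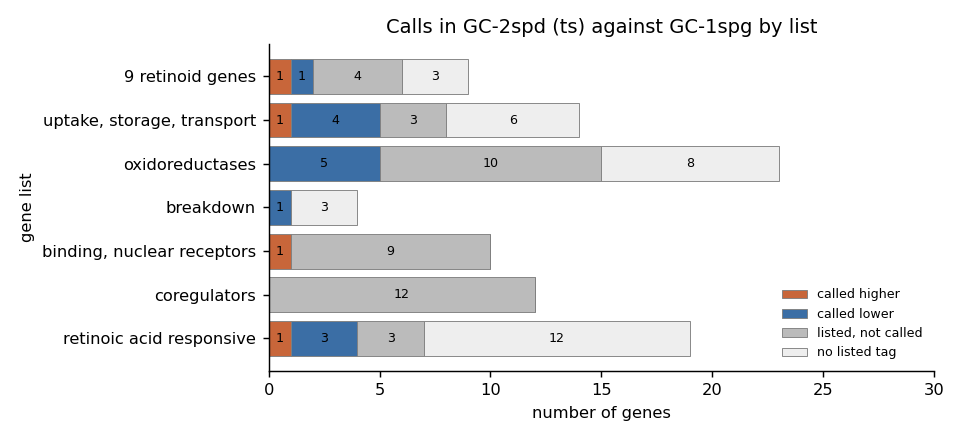
Number of genes (x axis) called higher, called lower, listed but not called, and without a listed tag, for the 9 retinoid genes and 6 lists of pathway genes (rows), in GC-2spd (ts) against GC-1spg. All 12 coregulators were listed and not called, and uptake, storage and transport had 4 genes called lower and 1 higher.

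Upstream of RDH10, the uptake, storage and transport list had 1 gene called higher and 4 lower of 8 listed. *Rbp4*, the carrier of retinol in blood, had 443 tags in GC-1spg against none in the GC-2spd (ts) library, at least 53.2-fold lower. *Rbp2*, a retinol binding protein of the intestine, had 77 and 0 tags (at least 15.1-fold lower), but they came from 1 tag that differs from the reference by 1 base. *Lpl*, which releases retinyl esters from lipoproteins, had 570 and 4 tags (log2 ratio -7.05, -8.93 to -5.69), most of them also from a tag with a 1-base difference. *Dgat1*, which esterifies retinol, had 79 and 89 tags and was not called. *Lrp1*, a receptor that takes up chylomicron remnants, was the gene that rose, with 321 and 1074 tags (log2 ratio 1.84, 1.66 to 2.03).

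Of 15 listed oxidoreductases of retinol and retinal, 5 were called lower and 0 higher. *Dhrs3*, which turns retinal back into retinol, had 53 tags in GC-1spg against 9 in GC-2spd (ts) (log2 ratio -2.46, -3.66 to -1.42). *Dhrs4* had 193 and 59 tags (-1.61, -2.05 to -1.18), *Dhrs9* 22 and 0 tags (at least 2.24-fold lower) and *Adh7* 24 and 2 tags (-3.48, -6.61 to -1.47). *Aox1*, an aldehyde oxidase, had 26 and 2 tags (-3.60, -6.72 to -1.60). *Dhrs3*, *Dhrs4*, *Adh7* and *Aox1* were not called when a biological coefficient of variation of 0.2 was assumed, and *Dhrs9* was not called at 0.4. *Adh7* and *Dhrs9* were also not called on the last CATG site alone, *Adh7* with exact matches alone, and *Aox1* on its longest transcript alone. The genes with at least 100 tags that were not called were *Adh5* (571 and 949 tags), *Retsat* (51 and 91), *Rdh11* (59 and 85), *Rdh14* (70 and 55) and *Dhrs7* (61 and 49). Of these, *Adh5* and *Retsat* passed the FDR threshold (2.39e-27 and 0.000655 in the Audic-Claverie test) and missed only the log2 ratio of 1.

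Among the breakdown genes other than *Cyp26b1*, the cytochrome P450 gene *Cyp2s1* had 177 tags in GC-1spg against none in the GC-2spd (ts) library, at least 18.0-fold lower. *Cyp26a1* and *Cyp26c1* had no listed tag.

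All 10 further binding proteins and nuclear receptors were listed, with 1 called higher. *Rarg*, the third retinoic acid receptor, was more abundant than *Rara* in both libraries, with 454 tags (89.5 TPM) in GC-1spg beside 253 (53.5 TPM) in GC-2spd (ts), and was not called (log2 ratio -0.74, -0.97 to -0.52). The partners *Rxra* (81 and 81 tags) and *Rxrb* (125 and 112 tags) were not called. *Fabp5*, which carries retinoic acid to PPARD, had 822 and 1233 tags (log2 ratio 0.69) and was not called, nor was *Ppard* itself (57 and 52 tags). Both *Rarg* and *Fabp5* passed the FDR threshold (1.67e-10 and 2.21e-25 in the Audic-Claverie test) and missed only the log2 ratio of 1. *Nr2f2*, an orphan receptor known to respond to retinoic acid, rose from 281 to 636 tags (log2 ratio 1.28, 1.08 to 1.49), but was not called at a biological coefficient of variation of 0.2.

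None of the 12 coregulators was called, although 9 had at least 100 tags over both libraries. *Ncor1*, a corepressor of unliganded receptors, had 777 and 491 tags (log2 ratio -0.56). *Crebbp* had 274 and 251 tags, but was called higher on the last CATG site alone. The coactivators *Ncoa3* (144 and 76 tags, -0.82) and *Ep300* (1153 and 635 tags, -0.76) had the lowest ratios of the list's genes with 100 tags. Others of that kind were *Med1* (745 and 759 tags), *Hdac3* (350 and 363), *Tbl1x* (172 and 158) and *Tbl1xr1* (187 and 105). Of the coregulators named here, *Ncor1*, *Ep300*, *Ncoa3* and *Tbl1xr1* missed only the log2 ratio of 1. Their FDRs in the Audic-Claverie test were 6.67e-11, 3.04e-26, 0.000152 and 8.85e-05.

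Of 19 genes known to respond to retinoic acid, 7 were listed, of which 1 was called higher and 3 lower. The list shares genes such as *Dhrs3*, *Stra6* and *Cyp26a1* with those above and *Crabp2* and *Rarb* with the 9 genes. *Tgm2*, a transglutaminase, had 67 and 242 tags (log2 ratio 1.95, 1.56 to 2.37), and *Bhlhe40*, a repressor of transcription, had 1060 and 293 (-1.75, -1.94 to -1.57). *Stra8* and *Rec8*, which retinoic acid switches on at the start of meiosis, and the meiotic genes *Meioc* and *Meiosin* had no listed tag in either library.

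**Figure D5:**
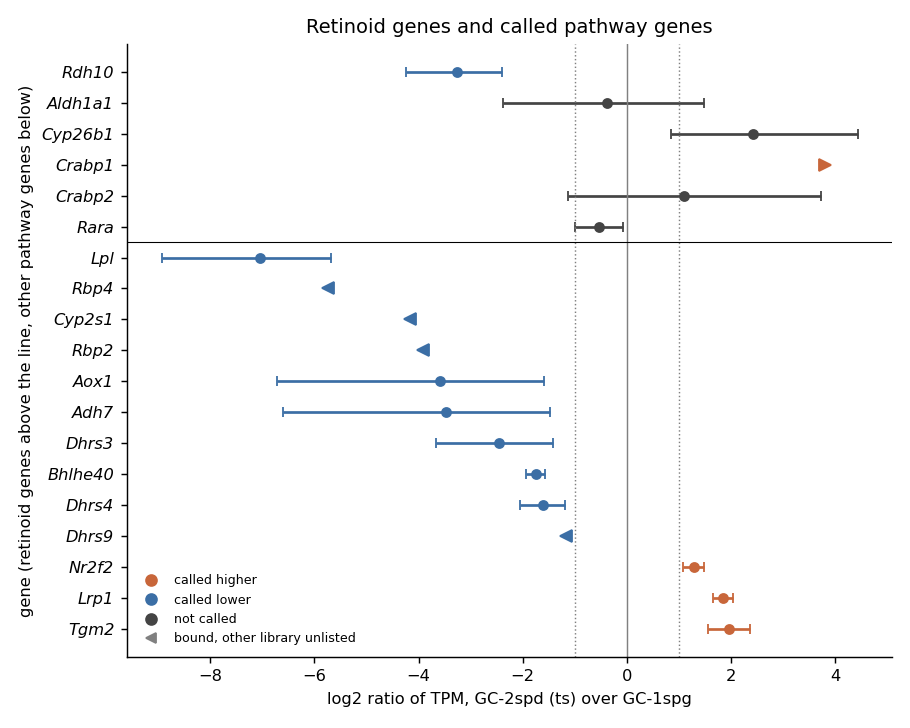
log2 ratio of GC-2spd (ts) over GC-1spg (x axis) for the 6 listed retinoid genes and 13 called genes of the pathway lists; points with bars are ratios with exact 95% intervals for counting error, triangles are bounds for genes without a listed tag in 1 library, and colour gives the call. *Rdh10* (-3.26) and the bound of *Crabp1* (at least 14.0-fold) lie on opposite sides of 0, and 10 of the 13 other genes shown lie below 0.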

How the data were processed

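DGE libraries of GC-1spg and GC-2spd (ts), 1 each, were used. The authors removed adaptor, low quality and single-copy tags and deposited each tag sequence with a copy number, which is a raw count. They also deposited TPM values, in which the copy number is scaled so that a library sums to 1000000. Their tag matching software is not named in the sources consulted.

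CATG+17 tags of both strands were taken from the 141767 transcripts of GENCODE M21 (GRCm38). Deposited tags were matched with at most 1 mismatch after CATG, exact matches first, and unambiguous sense counts were summed per gene over all clean tags. They made up 54.7% (GC-1spg) and 57.9% (GC-2spd (ts)) of the copies. The Audic-Claverie test used 0.01 TPM for a gene at 0. Ratio and share intervals are Clopper-Pearson and level intervals exact Poisson, at 95%. An unlisted gene was bounded by the upper Poisson limit (one-sided, 95%) on 1 copy per tag it had in the opposite library. edgeR's quasi-likelihood test needs replicates and could not be fitted. The calls and the ratio interval were tested on simulated counts with counting error only and no spread between cultures. Tag matching and the bound for unlisted genes were not simulated. Python 3.11.15, numpy 2.4.6, pandas 2.3.3, scipy 1.17.1, R 4.3.3 and edgeR 4.0.16 were used.

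The genes and lists were chosen with earlier results of these data known. Every one of the 9 genes was named with its tags, then every pathway gene called or with 100 or more tags in all, and detected germ cell markers. Genes without a listed tag were named as examples. A few genes under this rule are left out of the text. Alternatives were exact matches, the last CATG site, the longest transcript, both strands, sense matches preferred, TMM or sense-tag scaling, a minimum of 10 tags, 0.5 tags added, an exact binomial test, and the exact test of edgeR at an assumed biological coefficient of variation (BCV) of 0.1, 0.2 or 0.4.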

Additional observations from a re-analysis of the deposited data

Results flagged for a closer look

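Tags on the antisense strand, which no comparison above used, were listed for 3 of the 9 genes. *Rdh10* had 37 antisense copies in GC-1spg against 6 in GC-2spd (ts), or 23.1% (Clopper-Pearson 95% interval 16.8 to 30.4) and 33.3% (13.3 to 59.0) of its unambiguous copies. All 3 of its antisense tags start at the CATG of a listed sense tag, with 14 and 0 copies beside 88 and 9 sense copies, 15 and 6 beside 7 and 0, and 8 and 0 beside 25 and 3. *Aldh1a1* had 20 and 8 antisense copies, 74.1% (53.7 to 88.9) and 61.5% (31.6 to 86.1) of its copies, over 5 tags of which 1 shares its CATG with a listed sense tag. *Rara* had 10 and 12 antisense copies, 8.55% (4.17 to 15.2) and 14.8% (7.90 to 24.4), at the CATG of the 3′ UTR tag of the longer transcripts. CATG reads the same on both strands, so that 1 site can give a tag in each direction, and the source of these tags was not tested.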

How the results depend on the processing

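Over 13 alternatives, 76 values could be had for the 6 listed genes, and 75 kept their direction and their side of the threshold. Much of this was fixed in advance, and the 76 values are not independent checks. All sense tags of these genes were exact, so exact matches gave the same counts. Sense preference and the minimum of 10 tags also left the counts of the genes they kept unchanged. The binomial and edgeR tests reuse the same ratio, so that only the FDR could change there. *Cyp26b1* gave no value on the longest transcript alone, where its 4 and 20 tags went to 0 and 0, and *Crabp2*, with 9 tags in all, was removed by the minimum of 10. The exception among the 76 was *Rdh10*, with a log2 ratio of -3.26 and an FDR of 0.0238 in edgeR's exact test at a BCV of 0.4, where 0 of the 9 genes were called lower. *Crabp1* was called higher in all 13, with an FDR of at most 0.000283. Over all genes, 511 were called higher and 489 lower at a BCV of 0.2, and 108 and 136 at 0.4. Of the other pathway genes, 7 were called lower at a BCV of 0.2, and 5 lower and 0 higher at 0.4. TMM shifted every log2 ratio by -0.17, and 47.2% of calls were then higher, against 59.8%. Ratios near 0 changed sign under TMM for *Rxra* (-0.072), *Med1* (-0.045) and *Hdac3* (-0.019). Others changed sign with exact matches for *Rdh14* (0.95), with the last CATG site for *Adh5* (-0.78) and *Crebbp* (1.06, FDR 0.000591, called), and with both strands for *Crebbp* (0.090). *Rbp2* had no value with exact matches. The cause was not tested. No paired analysis was possible because each group has 1 library, and leaving out a replicate could not be run for the same reason. *Aldh1a1*, *Crabp2* and *Cyp26b1* had only 9 to 24 tags over both libraries, and *Aldh1a2*, *Aldh1a3* and *Rarb* had 0 of their own.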

Other observations

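Some pathway genes were counted mainly through a tag that differs from the reference by 1 base, given here as the reference base, its position counted from 1 at the 5′ end of the tag, and the base of the tag. This held for the leading tag of 5 of the 49 listed pathway genes, among them *Lpl* (G9A, 326 copies in GC-1spg against 2 in GC-2spd (ts)), *Rbp2* (C12A, 77 and 0 copies), *Adh7* (C15G, 18 and 2 copies) and *Rdh14* (T21A, 65 and 46 copies). None of the 15 sense tags of the 9 retinoid genes had such a difference. These sites were singled out after their values were seen.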
